A study of Mus musculus with 15 samples.

Results

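The genes described here are 41 listed genes of DNA damage repair and the checkpoint, and their transcript levels were followed through the development of cerebellar granule neurons and into medulloblastoma. They were listed by their function, with earlier results of these data already known. The shares of all genes set beside them below are therefore a description and not a test of the list. Of the 41 genes, 40 were found among the 21889 genes of the gene count table, and Prkdc was not analysed here. All 40 passed the filter on low counts, with no count below 75 in any library. By role they are 10 genes of homologous recombination, 8 of the Fanconi anaemia pathway, 2 of a helicase and exonuclease group, 8 checkpoint kinases and partners, 6 of break sensing and marking, 4 of end joining, and 2 of mismatch and single-strand break repair.

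RNA-seq counts were available for 15 mouse libraries, 3 in each of 5 groups, with 12597472 to 43443132 counts in genes per library. The first 4 groups were granule neuron precursors (GNPs), the proliferating cells that form the granule neurons of the cerebellum, taken from Math1-GFP embryos at the age labelled E15.5 and at postnatal days 1, 7 and 14 (P1, P7 and P14) from wild-type mice. The fifth group was medulloblastoma (MB), a cerebellar tumour that can arise from such precursors, from Ptch1 heterozygous mice whose age the labels do not give. All cells were purified on Percoll, a density gradient that enriches GNPs without removing every other cell, and RNA was selected by its poly(A) tail. The E15.5 age and the Math1-GFP genotype change together and cannot be told apart. The labels do not say that replicates came from separate animals, so p-values measure the spread between these samples, which may be technical. Levels are given as CPM, counts relative to the TMM-scaled library size. A gene was called changed at a false discovery rate (FDR) under 0.05 in edgeR's quasi-likelihood test with Benjamini-Hochberg adjustment over the 15259 genes tested. Changes are log2 differences ± their standard error, and "rose" or "fell" is used only of called genes. In bulk samples, fewer cells that express a gene and less RNA of that gene per cell cannot be told apart.

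Cells that copy their DNA meet stalled forks and broken ends, and they keep several repair routes in readiness. Homologous recombination copies a lost stretch from the sister chromatid and so belongs to S and G2 phase, whereas end joining rejoins broken ends at any stage of the cycle. The Fanconi anaemia proteins unhook crosslinks between the strands at forks, and the ATR-CHEK1 and ATM-CHEK2 kinase pairs hold the cycle while repair proceeds. GNPs divide rapidly after birth under Sonic hedgehog signalling and then leave the cycle, and in mice and people several of these genes protect the developing brain and, when lost, raise the risk of tumours.

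Promoter windows from RefSeq (GRCm38.p6) were found for 33 of the 40 genes, in 36 windows that each hold 250 bases before and 50 bases after an annotated start. The windows were searched on both strands for the E2F-type words TTTCGCGC, TTTGGCGC, TTTCCCGC and TTTGCCGC, which resemble sites of the E2F factors that drive S-phase genes. Such a word was present in 11 of the 36 windows (30.6%), which belong to 10 genes, against 3.51% of the 14769 windows of tested genes and 2.26% of all 32851 windows. The 10 genes were Brca2, Bard1, Rad51c, Fancg, Chek2, Topbp1, Clspn, Mdc1, Xrcc6 and Msh6. The CHR words TTTGAA and TTCGAA, which resemble the element bound in G2 and M phase genes, were in 2 of the 36 windows (5.56%), against 13.8% of the windows of tested genes. CCAAT was in 20 of 36 windows (55.6%), against 36.8%. A match is a run of letters and not a shown binding site. No entry was matched for Rad54b, Xrcc2, Fancd2, Exo1, Rad50, Nbn and H2afx. Of the genes with an E2F-type word, Clspn, Chek2 and Topbp1 had the largest called falls from P1 to P14, and their sequences are shown for that reason. Of the 10 genes with the word, 5 were called lower at P14 than at P1 (Bard1, Chek2, Topbp1, Clspn and Msh6), as were 13 of the 23 with a window and no such word. The E2F-type word is in capitals. For Chek2 (chr5:110839733-110839982, plus strand) and Topbp1 (chr9:103305077-103305326, plus strand) the 250 bases before the start are printed. For Clspn (chr4:126556990-126557019, plus strand) the word lies after the start and 30 bases around it are printed.
Clspn: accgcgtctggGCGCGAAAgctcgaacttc
Chek2: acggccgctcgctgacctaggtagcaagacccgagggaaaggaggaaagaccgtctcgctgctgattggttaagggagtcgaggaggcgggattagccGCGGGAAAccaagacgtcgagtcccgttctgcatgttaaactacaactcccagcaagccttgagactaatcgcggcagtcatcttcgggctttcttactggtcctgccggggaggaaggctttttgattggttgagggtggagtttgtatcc
Topbp1: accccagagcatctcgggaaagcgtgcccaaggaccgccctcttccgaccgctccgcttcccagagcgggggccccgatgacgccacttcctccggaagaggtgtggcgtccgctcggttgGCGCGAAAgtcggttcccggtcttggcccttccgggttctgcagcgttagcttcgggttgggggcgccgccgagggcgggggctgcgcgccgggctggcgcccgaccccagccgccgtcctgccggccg
Clspn and Topbp1 hold the same 8 letters, GCGCGAAA, and Chek2 holds GCGGGAAA, each of them the reverse complement of a searched word.

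Some libraries stood apart and their values bear on every comparison. P1 replicate 3 was the lowest of the 3 P1 libraries in 39 of the 40 genes, the exception being Xrcc4. Its summed level of 8 oligodendrocyte genes was 3615 CPM, against 266 and 667 CPM in P1 replicates 1 and 2 and 5756 to 6212 CPM at P14. That of 6 genes of maturing granule neurons was 3324 CPM, against 1819.9 and 1539.7 CPM in P1 replicates 1 and 2 and 3409.7 to 4443 CPM at P14. MB replicate 1 was the highest MB library in 30 of the 40 genes. Across the 40 genes, its log2 ratio to the mean of the other MB libraries went down with the GC content of the transcript (Pearson r -0.62, Spearman rho -0.46, over genes of the same 3 libraries, given with no test), and without H2afx these were -0.44 and -0.42 (n = 39 genes). P14 replicate 2 was the lowest P14 library in 26 genes. A split into 2 counting sets was first seen earlier, over the whole series, and was carried over here. The labels do not name it and its origin was not tested. It divides the libraries into a set of 6 (MB replicate 1, every P7 library, and E15.5 replicates 1 and 3) and a set of 9. When counts of the gene table were divided by those of the transcript table, the sets overlapped for all 40 genes, and the largest difference in median was 0.22 on the log2 scale. Because P7 is wholly in the first set and P1 and P14 are wholly in the second, age and set cannot be told apart in P7 against P1 and P14 against P7. The part of these differences in the results was not tested beyond the values given beside them.

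Most repair and checkpoint genes had a higher mean at P1 than at E15.5. Most had their lowest mean at P14, and most their highest in MB. Not every gene did all of these, and none was called between P1 and P7. MB had the highest group mean for 33 of the 40 genes, and P14 the lowest for 31. The shares of all genes with their highest or lowest mean in these groups were not counted. E15.5 had the highest mean for Trp53bp1, Xrcc4, Lig4 and Parp1, P1 for Fancc and Mre11a, and P7 for Nbn. E15.5 had the lowest mean for Bard1, Xrcc3, Fanca, Fancd2, Fancg, Fanci, Fancm and H2afx, and MB had it for Xrcc4. Over the 4 ages, 31 of the 40 genes differed somewhere, beside 55.7% of all genes tested. The 9 that did not pass were Rad51c, Fancc, Atrip, Timeless, H2afx, Xrcc4, Xrcc5, Xrcc6 and Lig4. Per kilobase of exon at P7, H2afx (114 ± 58.2 CPM per kb, SD, n = 3) and Parp1 (69.4 ± 3.59, SD, n = 3) were at the top of the genes and Fancl (3.27 ± 0.0999, SD, n = 3) was at the bottom.

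**Figure D1:**
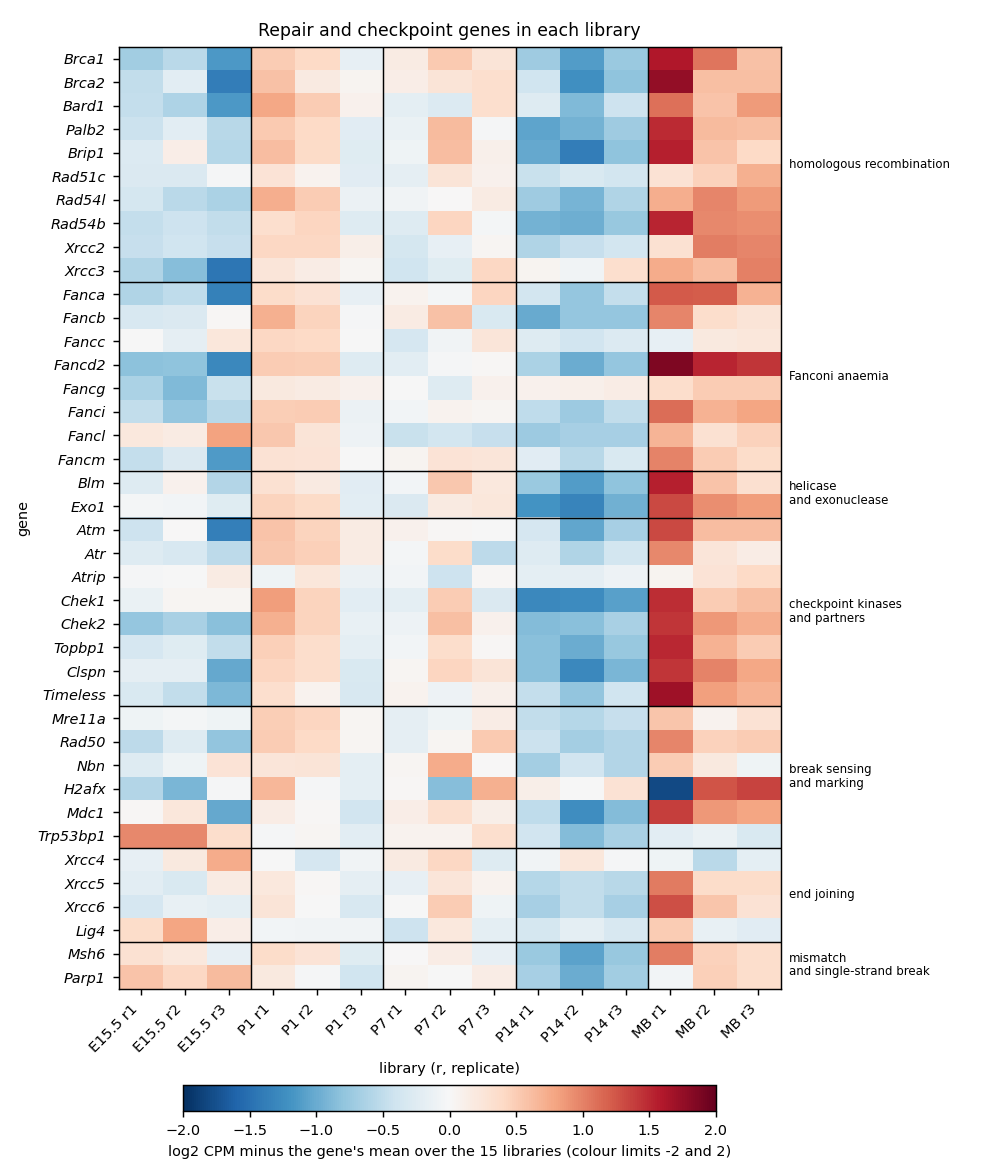
Level of each of the 40 genes (rows, in blocks by role) in each of the 15 libraries (columns, r is the replicate), as log2 CPM minus the gene's mean over the libraries, blue for lower and red for higher. The P14 columns are mostly blue and the MB columns mostly red, with Trp53bp1 and Parp1 red at E15.5 and H2afx blue in MB replicate 1.

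From E15.5 to P1, 16 of the 40 genes rose and 2 fell, beside 25.4% of all genes called higher and 20.9% called lower. The median change was 0.59, against 0.031 over all genes tested. Libraries of the groups did not overlap for 18 genes that were higher at P1 and for 3 that were lower, Trp53bp1, Lig4 and Parp1. The share of all genes whose libraries do not overlap was not counted, in this comparison or in those below. Such counts are therefore given only as a description of the 40 genes. The risers were 7 of 10 homologous recombination genes, 5 of 8 Fanconi genes, Atm, Atr and Chek2 of the 8 checkpoint genes, and Rad50. Within the set of 9 libraries, where E15.5 replicate 2 was the only library of its age, the median change was 0.47. Without P1 replicate 3, 21 rose and Trp53bp1 was the 1 that fell, beside 22.5% and 17.6% of all genes. In any fit that left out 1 library the number that rose was between 12 and 21, beside 20.8% to 23.8% of all genes. Of the 18 calls, 13 were made in all of these fits, the others being Brca2, Rad54b, Atm, Atr and Parp1. The summed level of 7 astroglial genes was 127 to 328 CPM at E15.5 and 2368 to 3502 CPM at P1, and that of 6 endothelial genes was 11.2 to 30.5 and 376 to 567 CPM. The part of these other cells in the differences between E15.5 and P1 was not tested.

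Between P1 and P7, no gene of the 40 was called in either direction by edgeR's quasi-likelihood test, beside 1.40% of all genes called higher and 1.74% called lower. At an unadjusted p under 0.05 there were 0 higher and 3 lower, beside 9.16% and 10.9% of all genes. DESeq2 called 1, Fancl, lower, beside 4.59%. The median change was -0.12. All P7 libraries were above all P1 libraries for Trp53bp1 and below them for Xrcc2, Fancg, Fancl and Atm.

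From P1 to P14, 23 of the 40 genes fell and 0 rose, beside 5.31% of all genes called lower and 3.63% called higher, and the median change was -0.87 against 0.005 over all genes. At an unadjusted p under 0.05 there were still 0 higher, with 34 lower, beside 14.2% and 13.3% of all genes. DESeq2 called 0 higher and 27 lower, beside 7.85% and 7.84%. All P14 libraries lay below all P1 libraries for 35 genes, and the 5 that overlapped were Xrcc3, Fancg, Atrip, H2afx and Xrcc4. The count depended on which libraries were in the fit. It was 27 without P1 replicate 3, 7 without P14 replicate 1, 3 without P1 replicate 2 or P14 replicate 3, 2 without P1 replicate 1 and 1 without P14 replicate 2. All of these fits kept the median between -0.99 and -0.76, and they called 7.96% of all genes lower without P1 replicate 3 and 0.939% to 1.60% in the other 5. Exo1 was called lower in every one of them. Both ages lie in the set of 9 libraries, and a fit to that set alone called 31 lower, beside 9.17% of all genes. Summed levels of 8 oligodendrocyte genes were 266 to 3615 CPM at P1, 742 to 1653 at P7 and 5756 to 6212 at P14, and those of 6 endothelial genes were 376 to 567, 285 to 348 and 691 to 725 CPM. The part of these other cells in the falls was not tested.

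From P7 to P14, 19 fell and 0 rose, beside 4.51% of all genes called lower and 5.81% called higher, with a median of -0.72. At an unadjusted p under 0.05 there were 29 lower and 0 higher, beside 13.1% and 15.2% of all genes, and DESeq2 called 21 lower and 0 higher, beside 6.56% and 9.40%. All P14 libraries were below all P7 libraries for 31 genes and above them for Fancg. Leaving out P7 replicate 1 left 16 called and P7 replicate 3 left 13, with 3.68% and 3.09% of all genes called lower. Leaving out P7 replicate 2 left 1 (Exo1), P14 replicate 1 left 5, P14 replicate 3 left 4 and P14 replicate 2 left 0, with 0.465%, 1.05%, 1.13% and 0.233% of all genes. A term for the counting set, which here coincides with age in the libraries compared and is estimated from E15.5 and MB, also left 0, with a median of -0.63 and 0.511% of all genes called lower.

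In MB against P7, 21 of the 40 genes were higher and 0 lower, beside 13.7% of all genes called higher and 20.7% called lower, and the median change was 0.73. At an unadjusted p under 0.05, 30 were higher and 0 lower, beside 19.0% and 24.1% of all genes, and DESeq2 called 25 higher and 0 lower, beside 16.6% and 21.6%. All MB libraries lay above all P7 libraries for 24 genes, and below them for Trp53bp1. Without MB replicate 1, 14 were called higher with a median of 0.49, beside 15.6% of all genes. Without P7 replicate 1, 12 were called higher, beside 10.9% of all genes. Without MB replicate 1 the calls of Brca1, Atm, Chek1, Chek2, Topbp1, Clspn, Mdc1, Xrcc5 and Msh6 were lost. Within the set of 6 libraries, which holds MB replicate 1 as the only tumour, the median change was 1.04. Rad54l, Rad54b, Xrcc2, Fanca, Fancd2, Fanci, Fancl, Exo1 and Timeless were called higher in every fit that left out 1 library.

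Against P14, 33 of the 40 genes were higher in MB and 0 lower, beside 22.9% of all genes called higher and 27.2% called lower. The median change was 1.40, at an unadjusted p under 0.05 there were 35 higher and 0 lower, beside 26.3% and 29.5% of all genes, and DESeq2 called 35 higher and 0 lower, beside 24.2% and 27.9%. All MB libraries were above all P14 libraries for 37 genes and below them for Xrcc4. The 7 genes not called were Fancc, Fancg, Atrip, H2afx, Trp53bp1, Xrcc4 and Lig4. The count stayed between 31 and 35 when any 1 library was left out, beside 17.8% to 22.5% of all genes. It was 35 within the set of 9 libraries, beside 23% of all genes. P7 is in the first contrast, P14 in the second and the MB libraries in both, so these values share their tumour samples. Summed levels of 6 GABAergic interneuron genes were 5.04 to 8.33 CPM in MB, against 195 to 286 at P7 and 115 to 174 at P14, and those of 8 oligodendrocyte genes were 144 to 379 CPM in MB. Those of 6 Purkinje cell genes were 27.7 to 44.3 CPM in MB and 334 to 923 at P7, and those of 6 endothelial genes 17.6 to 31.5 and 285 to 348 CPM. Of 7 microglial and macrophage genes, 4 were called higher in MB than at P7 (Aif1, Tyrobp, C1qa and C1qb, median of the list 2.03). None was called lower there, and 1 estimate was below 0. The same 4 were called higher than at P14, where 3 estimates were below 0 (median 1.75). The summed level of the 7 genes was 394, 163 and 136 CPM in MB replicates 1 to 3. It was 42.8 to 136 CPM at P7 and 128 to 185 CPM at P14, which overlapped MB. The part of these cells in the tumour differences was not tested.

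**Figure D2:**
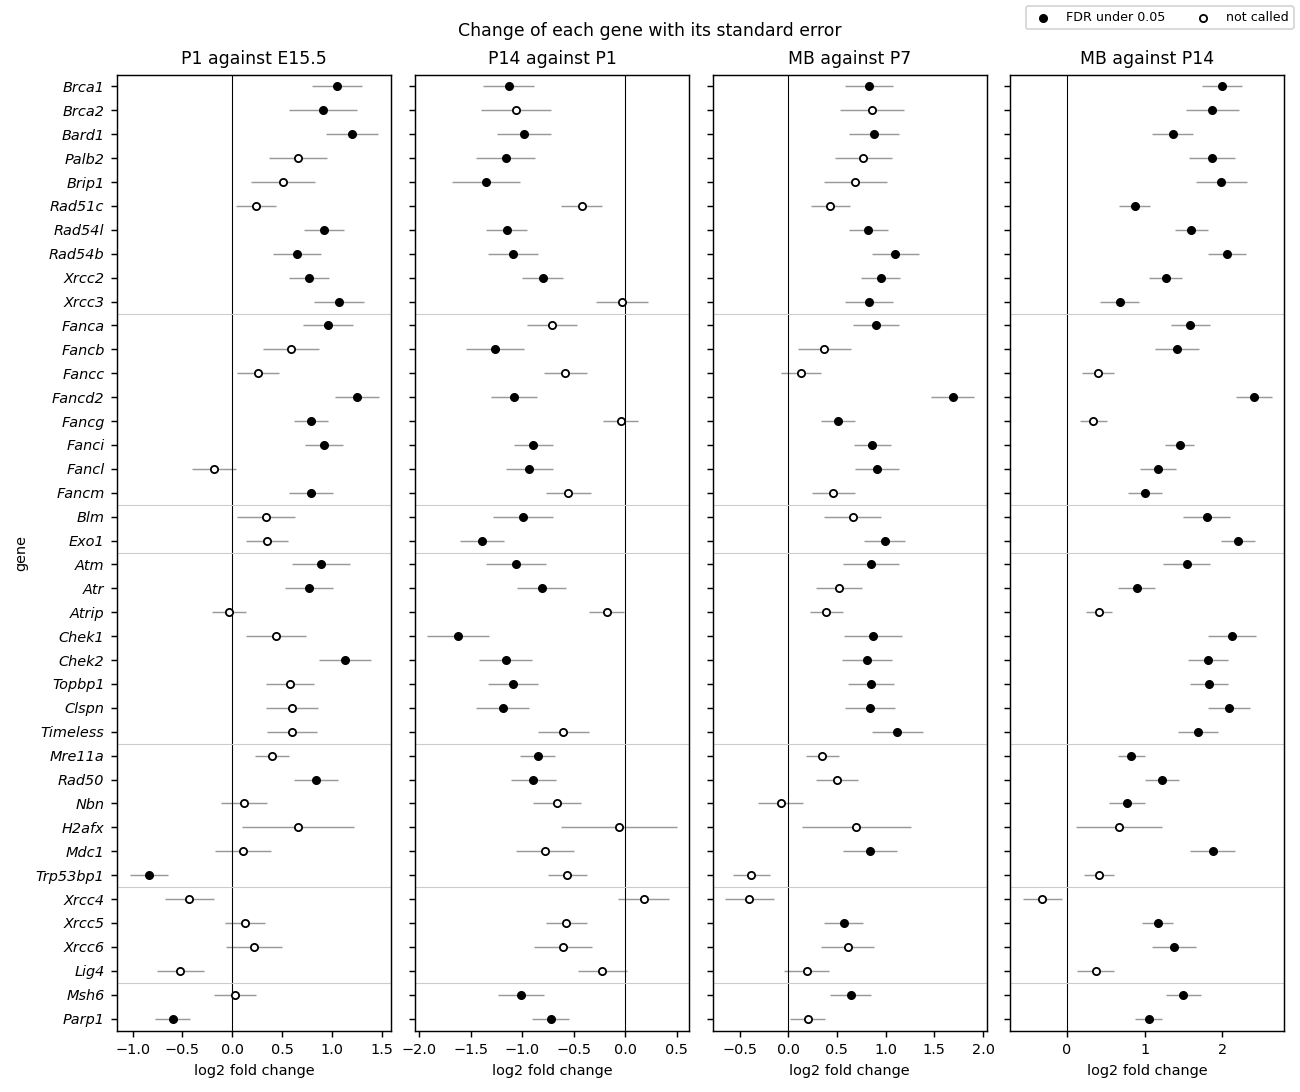
Log2 fold change of each of the 40 genes in 4 comparisons, with bars of 1 standard error (edgeR), filled points for genes called at an FDR under 0.05 and open points for the others. In the panel of P14 against P1 all points but that of Xrcc4 lie below 0, and in the panel of MB against P14 all points but that of Xrcc4 lie above 0.

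Of the 10 homologous recombination genes, 7 rose from E15.5 to P1 (median 0.84), 7 fell from P1 to P14 (median -1.07), 6 were higher in MB than at P7 (median 0.83), and all 10 were higher in MB than at P14 (median 1.73). Brca1 (ENSMUSG00000017146, chr11:101350078-101413193 in mm9, whole gene span, as for all gene positions below) encodes the tumour suppressor that directs the resection of broken ends. Brca1 was at 54.4, 60.05 and 39.5 CPM in the E15.5 libraries and at 125, 116 and 78.7 CPM at P1. It was at 97.9, 126 and 105 CPM at P7 and 53.4, 40.5 and 52.2 CPM at P14, and at 266, 185 and 132 CPM in MB. The P14 libraries did not overlap those of P1 or P7, and all MB libraries were above every normal library. Brca1 rose 2.08-fold from E15.5 to P1 (1.05 ± 0.25, FDR 0.00342) and fell by 1.13 ± 0.25 (FDR 0.0167) from P1 to P14. It was higher in MB than at P7 (0.83 ± 0.25, FDR 0.0179), and without MB replicate 1 this was 0.54 (FDR 0.0858) and did not pass.

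Bard1 (ENSMUSG00000026196, chr1:71074072-71149720) encodes the obligate partner of BRCA1 in its ubiquitin ligase. Bard1 was at 19.2, 17.4 and 12.03 CPM in the E15.5 libraries and at 45.7, 37.9 and 28.1 CPM at P1. It was at 23.2, 22.1 and 33.6 CPM at P7 and 22.3, 14.5 and 19.9 CPM at P14, and at 57.04, 39.7 and 48.2 CPM in MB. E15.5 replicate 3 was the lowest library, and 2 of the P7 libraries lay near the highest P14 library. Its rise from E15.5 to P1 (1.20 ± 0.26, FDR 0.00165) was the largest of the homologous recombination genes. Brca2 (ENSMUSG00000041147, chr5:151325205-151372321) encodes a tumour suppressor that acts on resected, single-stranded DNA. Brca2 was at 41.96, 51.3 and 22.7 CPM in the E15.5 libraries and at 88.6, 67.1 and 61.2 CPM at P1. It was at 64.9, 70.9 and 74.6 CPM at P7 and 45.1, 25.3 and 33.9 CPM at P14, and at 201, 90.2 and 89.98 CPM in MB. MB replicate 1, at 201 CPM, stood above the other MB libraries, and E15.5 replicate 3 was the lowest of all. Brca2 rose from E15.5 to P1 (0.91 ± 0.34, FDR 0.0378), a call that was made in 2 of the 6 fits that left out a library, with a change of 0.59 without E15.5 replicate 3. Its P14 libraries were all below those of P1, but the difference did not pass the test (-1.06 ± 0.34, FDR 0.0615).

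Palb2, whose product links BRCA1 to BRCA2, was less abundant. Palb2 was at 10.5, 12.2 and 9.56 CPM in the E15.5 libraries and at 20.3, 18.5 and 12.1 CPM at P1. It was at 12.9, 21.8 and 13.9 CPM at P7 and 6.78, 7.32 and 8.62 CPM at P14, and at 39.6, 21.8 and 21.5 CPM in MB. P14 was below every other library, and MB overlapped P7 at the level of replicate 2. Palb2 fell from P1 to P14 (-1.16 ± 0.29, FDR 0.0272) and was higher in MB than at P14 (1.87 ± 0.30, FDR 0.000105). Brip1 encodes a helicase bound by BRCA1 (also known as FANCJ). Brip1 was at 17.2, 22.7 and 14.02 CPM in the E15.5 libraries and at 31.8, 26.9 and 17.6 CPM at P1. It was at 19.5, 31.8 and 22.2 CPM at P7 and 10.2, 7.93 and 11.8 CPM at P14, and at 60.5, 30.7 and 27.4 CPM in MB. Its fall from P7 to P14 (-1.30 ± 0.33, FDR 0.0245) was the largest of the 40 genes in that comparison, and without P14 replicate 2 no gene was called there.

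The RAD54 proteins are DNA motors that help open the matching strand. Rad54l was at 23.6, 20.7 and 19.5 CPM in the E15.5 libraries and at 49.7, 43.1 and 27.7 CPM at P1. It was at 28.8, 30.4 and 33.7 CPM at P7 and 18.5, 15.9 and 19.8 CPM at P14, and at 49.7, 59.6 and 54.6 CPM in MB. Every P1 library was above every E15.5 library, and P14 was below P1 and P7 throughout. Rad54l rose from E15.5 to P1 (0.92 ± 0.20, FDR 0.002), fell from P1 to P14 (-1.15 ± 0.20, FDR 0.0056) and was higher in MB than at P7 (0.82 ± 0.20, FDR 0.00515). Rad54b was at 14.2, 14.8 and 14.02 CPM in the E15.5 libraries and at 24.7, 26.4 and 16.5 CPM at P1. It was at 16.5, 26.4 and 19.1 CPM at P7 and 10.2, 10.04 and 11.6 CPM at P14, and at 56.8, 38.4 and 37.3 CPM in MB. The 3 MB values of Rad54b were above all normal libraries, and the P14 values were the lowest. Rad54b (ENSMUSG00000078773, chr4:11486119-11542952) was 2.14-fold higher in MB than at P7 (1.10 ± 0.24, FDR 0.00206) and 4.16-fold higher than at P14 (2.06 ± 0.24, FDR 7.76e-06). Xrcc2, Xrcc3 and Rad51c are accessory genes of recombination. Xrcc2 fell from P1 to P14 (-0.80 ± 0.20, FDR 0.0288), whereas Xrcc3 (-0.03) and Rad51c (-0.42) did not pass the test there, and the difference between these genes was not tested. Xrcc3 rose from E15.5 to P1 (1.07 ± 0.25, FDR 0.0028) and its P14 libraries, at 23.5 to 31.1 CPM, overlapped those of P1 at 25.4 to 29.1 CPM.

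**Figure D3:**
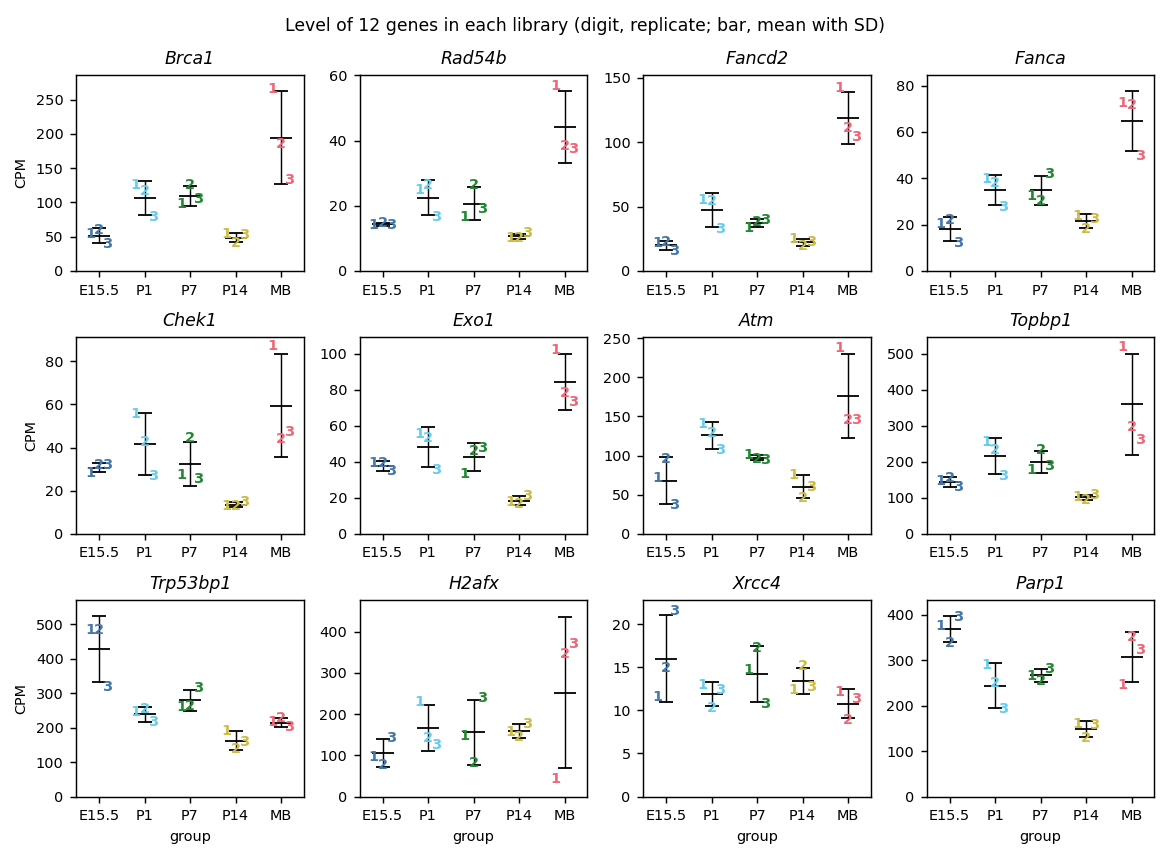
CPM of 12 genes in each library on linear axes that start at 0, where digits are the replicates of each group and the black bars are the mean with its SD (n = 3). Fancd2 shows all 3 MB libraries at 104 to 142 CPM above every normal library, and H2afx shows MB replicate 1 at 41.5 CPM against 345 and 371 in the other MB libraries.

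Of the 8 Fanconi anaemia genes, 5 rose from E15.5 to P1 (median 0.79), 4 fell from P1 to P14 (median -0.80), 5 were higher in MB than at P7 (median 0.69) and 6 were higher in MB than at P14 (median 1.29). Fancd2 (ENSMUSG00000034023, chr6:113481676-113547011) encodes a subunit of the clamp that is ubiquitinated at crosslinks, the central step of the pathway. Fancd2 was at 21.9, 22.2 and 15.8 CPM in the E15.5 libraries and at 55.1, 54.6 and 32.5 CPM at P1. It was at 33.4, 38.1 and 39.4 CPM at P7 and 24.9, 19.5 and 22.6 CPM at P14, and at 142, 111 and 104 CPM in MB. All MB libraries, the lowest at 104 CPM, were above the highest normal library at 55.1 CPM. Fancd2 had the largest changes of the 40 genes in 3 comparisons. It rose 2.38-fold from E15.5 to P1 (1.25 ± 0.22, FDR 0.000366), was 3.22-fold higher in MB than at P7 (1.69 ± 0.22, FDR 3.17e-05) and was 5.33-fold higher in MB than at P14 (2.41 ± 0.23, FDR 8.88e-07). Without MB replicate 1 its difference from P7 was 1.54, and within the set of 6 libraries it was 1.93. Its fall from P1 to P14 was -1.08 ± 0.22, FDR 0.0112.

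Fanci encodes the other subunit of that clamp. Fanci was at 23.2, 19.04 and 22.2 CPM in the E15.5 libraries and at 45.7, 46.5 and 30.03 CPM at P1. It was at 31.5, 34.2 and 33.6 CPM at P7 and 22.99, 19.8 and 23.3 CPM at P14, and at 71.1, 53.1 and 56.4 CPM in MB. All MB libraries were above all others, and E15.5 and P14 lay at like levels. Fanci rose from E15.5 to P1 (0.92 ± 0.19, FDR 0.00125), fell from P1 to P14 (-0.89 ± 0.19, FDR 0.0143) and was higher in MB than at P7 (0.86 ± 0.19, FDR 0.00234), the same 3 calls as its partner with smaller estimates. Fanca encodes a scaffold of the core complex that ubiquitinates the clamp. Fanca was at 20.3, 21.8 and 12.1 CPM in the E15.5 libraries and at 39.7, 37.8 and 27.5 CPM at P1. It was at 32.3, 30.1 and 41.8 CPM at P7 and 23.9, 18.1 and 22.3 CPM at P14, and at 72.5, 71.6 and 49.8 CPM in MB. E15.5 replicate 3 was the lowest library, and MB replicate 3 was the lowest tumour at 49.8 CPM, still above the highest P7 library. Fanca rose from E15.5 to P1 (0.96 ± 0.25, FDR 0.00539) and was higher in MB than at P7 (0.90 ± 0.24, FDR 0.00958), and its difference between P14 and P1 did not pass (-0.71 ± 0.24, FDR 0.079).

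The other core genes did not all move together. Fancl encodes the ubiquitin ligase subunit. It was at 13.4 to 20.9 CPM at E15.5, 11.1 to 17.3 at P1, 8.71 to 9.22 at P7, 7.25 to 7.55 at P14 and 14.8 to 19.2 in MB, and it fell from P1 to P14 (-0.93 ± 0.23, FDR 0.0243) and was higher in MB than at P7 (0.91 ± 0.23, FDR 0.00541). Fancb fell from P1 to P14 (-1.26 ± 0.28, FDR 0.0165). Fancm, an anchor of the core complex on DNA, rose from E15.5 to P1 (0.79 ± 0.22, FDR 0.00851). Fancg rose from E15.5 to P1 (0.79 ± 0.17, FDR 0.00172) and was then at 22.3 to 24.1 CPM at P1 and 22.4 to 23.3 CPM at P14. Fancc was called in none of the 6 comparisons.

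Blm and Exo1 act on DNA ends and recombination intermediates, Blm as a helicase that dissolves joint molecules and Exo1 as a nuclease that resects ends and serves mismatch repair. Exo1 was at 39.6, 39.2 and 34.7 CPM in the E15.5 libraries and at 55.6, 53.5 and 35.4 CPM at P1. It was at 33.5, 46.1 and 47.8 CPM at P7 and 17.8, 16.3 and 21.03 CPM at P14, and at 102, 78.1 and 73.1 CPM in MB. The 3 P14 libraries were the lowest and the 3 MB libraries the highest, with no overlap with any other group. Exo1 (ENSMUSG00000039748, chr1:177810909-177841527) fell 2.62-fold from P1 to P14 (-1.39 ± 0.21, FDR 0.00233) and was 4.59-fold higher in MB than at P14 (2.20 ± 0.22, FDR 1.36e-06). Its change from P1 to P14 lay between -1.57 and -1.26 in the 16 alternatives, and it was the 1 gene called in all of them for that comparison. Blm was at 46.5, 59.2 and 37.1 CPM in the E15.5 libraries and at 68.96, 63.3 and 47.7 CPM at P1. It was at 53.7, 80.9 and 64.7 CPM at P7 and 33.3, 25.6 and 31.8 CPM at P14, and at 164, 82.2 and 69.7 CPM in MB. MB replicate 1 stood at 164 CPM, and MB replicate 3 was below P7 replicate 2. Blm fell from P7 to P14 (-1.14 ± 0.29, FDR 0.0264), a call made in 1 of the 6 fits that left out a library. Its difference between MB and P7 did not pass (0.66 ± 0.29, FDR 0.089).

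Of the 8 checkpoint genes, 3 rose from E15.5 to P1 (median 0.60), 6 fell from P1 to P14 (median -1.08) and 6 were higher in MB than at P7 (median 0.84). Chek1 (ENSMUSG00000032113, chr9:36516067-36534243) encodes the effector kinase that ATR activates at stalled forks. Chek1 was at 28.3, 31.99 and 31.9 CPM in the E15.5 libraries and at 55.5, 42.6 and 26.9 CPM at P1. It was at 27.3, 44.3 and 25.6 CPM at P7 and 12.8, 13.1 and 14.7 CPM at P14, and at 86.9, 44.1 and 47.2 CPM in MB. P14 was at 12.8 to 14.7 CPM, below all other libraries, and MB replicate 2 was slightly below P7 replicate 2. Chek1 had the largest fall of the 40 genes from P1 to P14, 3.08-fold (-1.62 ± 0.30, FDR 0.00774), called in 4 of the 6 fits that left out a library. Its higher level in MB than at P7 (0.87 ± 0.30, FDR 0.0323) was called in 3 of 6 such fits and was 0.49 (FDR 0.17) without MB replicate 1. Chek2 encodes the kinase on the ATM side. Chek2 was at 9.90, 10.9 and 9.56 CPM in the E15.5 libraries and at 27.8, 23.1 and 15.4 CPM at P1. It was at 15.9, 25.9 and 18.03 CPM at P7 and 9.31, 9.52 and 10.8 CPM at P14, and at 45.7, 30.97 and 28.1 CPM in MB. E15.5 and P14 lay at like levels, near 10 CPM, and the MB libraries were above all others. Chek2 rose from E15.5 to P1 (1.13 ± 0.26, FDR 0.00258) and fell from P1 to P14 (-1.16 ± 0.26, FDR 0.0165).

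Atm (ENSMUSG00000034218, chr9:53247254-53344845) and Atr (ENSMUSG00000032409, chr9:95758016-95852063) encode the kinases that respond to double-strand breaks and to single-stranded DNA at forks. Atm was at 71.2, 95.96 and 36.8 CPM in the E15.5 libraries and at 141, 129 and 107 CPM at P1. It was at 101, 96.2 and 94.5 CPM at P7 and 74.9, 46.02 and 60.2 CPM at P14, and at 238, 145 and 145 CPM in MB. All P7 libraries were just below all P1 libraries, and E15.5 was widely spread. Atm rose from E15.5 to P1 (0.89 ± 0.29, FDR 0.0222) and fell from P1 to P14 (-1.06 ± 0.29, FDR 0.0393), calls made in 3 and in 1 of the 6 fits that left out a library. Without E15.5 replicate 3 the first change was 0.54. Atr was at 55.00, 52.5 and 45.9 CPM in the E15.5 libraries and at 96.00, 91.4 and 73.9 CPM at P1. It was at 64.1, 84.8 and 46.03 CPM at P7 and 54.8, 43.6 and 50.8 CPM at P14, and at 128, 78.02 and 72.6 CPM in MB. MB replicates 2 and 3 were below P7 replicate 2, so the tumours and P7 overlapped. Atr rose from E15.5 to P1 (0.77 ± 0.24, FDR 0.0171) and fell from P1 to P14 (-0.81 ± 0.24, FDR 0.0492), and its difference between MB and P7 did not pass (0.52 ± 0.24, FDR 0.112). Atrip, the partner that brings ATR to single-stranded DNA, was called in none of the 6 comparisons and lay between 20.7 and 36.4 CPM in all libraries.

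Topbp1 (ENSMUSG00000032555, chr9:103207545-103252762) encodes the activator of ATR, and Clspn (ENSMUSG00000042489, chr4:126234179-126271147) encodes claspin, the adaptor through which ATR reaches CHEK1. Both carry the E2F-type word shown above. Topbp1 fell from P1 to P14 (-1.09 ± 0.24, FDR 0.0161) from 161 to 255 CPM down to 92.6 to 108 CPM. Clspn fell as well (-1.19 ± 0.26, FDR 0.0154), from 51.4 to 85.6 CPM down to 26.1 to 35.7 CPM. In MB against P7, Topbp1 (0.85 ± 0.24, FDR 0.0124) and Clspn (0.84 ± 0.26, FDR 0.0198) were both higher, but without MB replicate 1 they were at 0.48 (FDR 0.0629) and 0.63 (FDR 0.0737) and did not pass. Timeless encodes a fork protection protein. Timeless was at 57.9, 50.6 and 38.5 CPM in the E15.5 libraries and at 89.9, 75.4 and 57.1 CPM at P1. It was at 75.1, 66.8 and 76.9 CPM at P7 and 51.5, 41.3 and 54.2 CPM at P14, and at 232, 126 and 116 CPM in MB. MB replicate 1, at 232 CPM, stood above the other tumours, and all MB libraries were above all normal ones. Timeless was higher in MB than at P7 (1.12 ± 0.26, FDR 0.00305), the second largest estimate of the 40 genes in that comparison, and 0.73 without MB replicate 1. Its difference between P14 and P1 did not pass (-0.60 ± 0.25, FDR 0.142).

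Genes of break sensing and marking were less uniform. Of the 6, Rad50 rose and Trp53bp1 fell from E15.5 to P1, Rad50 and Mre11a fell from P1 to P14, and Mdc1 was the 1 called higher in MB than at P7. Trp53bp1 (ENSMUSG00000043909, chr2:121020574-121097143) encodes 53BP1, which shields broken ends and favours end joining. Trp53bp1 was at 483, 483 and 317 CPM in the E15.5 libraries and at 246, 255 and 215 CPM at P1. It was at 260.5, 262 and 315 CPM at P7 and 191, 137 and 158 CPM at P14, and at 215, 227 and 202 CPM in MB. The E15.5 libraries were above all others, and the MB libraries lay below all P7 libraries. Trp53bp1 fell 1.79-fold from E15.5 to P1 (-0.84 ± 0.19, FDR 0.00207), a call made in all 6 fits that left out a library. It fell again from P7 to P14 (-0.78 ± 0.19, FDR 0.0207), a call made in 2 of 6 such fits. The term for the counting set also removed that second call. Its difference between P14 and P1 did not pass (-0.56 ± 0.19, FDR 0.0728). Its difference between MB and P7 did not pass (-0.38 ± 0.19, FDR 0.136). Its opponent at broken ends, Brca1, rose over the same first step, and the difference between the genes was not tested.

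Mre11a, Rad50 and Nbn encode the MRN complex, which binds broken ends and activates ATM. Nbn was at 31.6, 35.9 and 45.8 CPM in the E15.5 libraries and at 44.9, 45.4 and 33.2 CPM at P1. It was at 39.2, 63.5 and 38.02 CPM at P7 and 23.6, 29.2 and 25.4 CPM at P14, and at 53.99, 43.3 and 35.9 CPM in MB. P7 replicate 2 was the highest library of Nbn, and MB overlapped P7. Nbn fell from P7 to P14 (-0.85 ± 0.23, FDR 0.0341), a call made in 2 of the 6 fits that left out a library. Its differences between P14 and P1 (-0.66 ± 0.23, FDR 0.0868) and between MB and P7 (-0.08 ± 0.23, FDR 0.829) did not pass. Mre11a fell from P1 to P14 (-0.85 ± 0.17, FDR 0.0109), as did Rad50 (-0.89 ± 0.22, FDR 0.0257). Mdc1, the scaffold that reads the phosphorylated histone at breaks, was at 246 to 372 CPM in MB and 155 to 179 CPM at P7 (0.84 ± 0.28, FDR 0.0307), and without MB replicate 1 the difference was 0.63 (FDR 0.108).

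H2afx (ENSMUSG00000049932, chr9:44142798-44144154) encodes H2A.X, the histone that is phosphorylated around breaks. H2afx was at 96.1, 76.8 and 142 CPM in the E15.5 libraries and at 229, 143 and 126 CPM at P1. It was at 148, 80.3 and 238 CPM at P7 and 157, 144 and 177 CPM at P14, and at 41.5, 345 and 371 CPM in MB. MB replicate 1 was the lowest of all libraries, and the other MB libraries were the highest. H2afx passed the test in none of the 6 comparisons, with a standard error of 0.56 in each. In MB against P7 its change was 0.70 with all libraries and 1.21 (FDR 0.0177) without MB replicate 1. Within the set of 6 libraries, where MB replicate 1 is the only tumour, the direction was the reverse, at -1.91. Its transcript had a GC content of 62.3%, the highest of the 40 genes.

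End joining genes had few calls, and the difference between roles was not tested. The estimates for the 4 found ran from -0.52 to 0.22 for P1 against E15.5 and from -0.60 to 0.18 for P14 against P1. None of these passed the test, beside 46.3% and 8.94% of all genes called in either direction. All P14 libraries lay below all P1 libraries for Xrcc5, Xrcc6 and Lig4. Xrcc5 was the 1 of the 4 called higher in MB than at P7 (25%), beside 13.7% of all genes. Both Xrcc5 and Xrcc6 were called higher in MB than at P14, beside 22.9% of all genes. Xrcc5 and Xrcc6 encode the Ku heterodimer that caps broken ends. Xrcc5 was at 55.6, 52.03 and 71.9 CPM in the E15.5 libraries and at 74.5, 65.3 and 56.9 CPM at P1. It was at 57.5, 75.99 and 67.7 CPM at P7 and 43.4, 45.7 and 43.7 CPM at P14, and at 132, 83.4 and 83.1 CPM in MB. MB replicate 1 was at 132 CPM, and all P14 libraries were below all P7 libraries. Xrcc5 was higher in MB than at P7 (0.57 ± 0.20, FDR 0.0396) and than at P14 (1.17 ± 0.20, FDR 0.000234). Without MB replicate 1 the first of these was 0.31 (FDR 0.181) and did not pass. Xrcc6 was at 5.54, 6.26 and 6.09 CPM in the E15.5 libraries and at 8.33, 6.90 and 5.61 CPM at P1. It was at 6.96, 9.93 and 6.59 CPM at P7 and 4.38, 4.97 and 4.41 CPM at P14, and at 17.1, 10.2 and 8.53 CPM in MB. The transcript table holds 1 model of 0.797 kb for Xrcc6, shorter than the 3.3 kb of its longest reference transcript, and its level was not set beside that of Xrcc5. Xrcc6 was higher in MB than at P14 (1.38 ± 0.28, FDR 0.000784). Xrcc4, the partner of DNA ligase IV, lay between 8.89 and 21.6 CPM, and Lig4, the ligase itself, between 17.1 and 39.5 CPM, and neither was called in any of the 6 comparisons.

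Msh6 and Parp1 stand for other routes, Msh6 as a mismatch sensor and Parp1 as the enzyme that marks single-strand breaks with poly(ADP-ribose). Msh6 fell from P1 to P14 (-1.01 ± 0.22, FDR 0.0141) and was higher in MB than at P7 (0.64 ± 0.21, FDR 0.0307), and the latter was 0.40 (FDR 0.134) without MB replicate 1. Parp1 was at 376, 338 and 395 CPM in the E15.5 libraries and at 289.8, 250.4 and 193 CPM at P1. It was at 265, 254 and 282 CPM at P7 and 159.9, 128 and 157 CPM at P14, and at 245, 352 and 323 CPM in MB. E15.5 was above P1, P7 and P14, and MB replicate 1 was the lowest tumour and below all P7 libraries. Parp1 (ENSMUSG00000026496, chr1:182499086-182531384) fell from E15.5 to P1 (-0.60 ± 0.18, FDR 0.0151) and again from P1 to P14 (-0.72 ± 0.18, FDR 0.0283). Without P1 replicate 3 the first of these did not pass. Parp1 was higher in MB than at P14 (1.05 ± 0.18, FDR 0.000254), and its difference from P7 did not pass (0.20 ± 0.18, FDR 0.435).

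Other repair genes, a further list of which 103 of 106 were found, are given beside them, with smaller medians in each of the following contrasts. From P1 to P14, 18 fell and 1 rose (median -0.32), beside 5.31% and 3.63% of all genes. In MB against P7, 35 were higher and 3 lower (median 0.47), beside 13.7% and 20.7% of all genes. From E15.5 to P1, 15 rose and 18 fell (median 0.08). These were 32% of the list, below the 46.3% of all genes called in either direction. The 15 found in homologous recombination had 6 falls from P1 to P14 (40%) and 7 higher in MB than at P7 (46.7%). The 12 found in the checkpoint had 6 (50%) and 4 (33.3%). Of the 14 of nucleotide excision repair, which removes bulky lesions at any cycle stage, the median change from P1 to P14 was -0.10. In MB, 2 of them were higher than at P7 (14.3%), near the 13.7% of all genes. Lig1 (-1.09 ± 0.21, FDR 0.00846), the replicative ligase, was among the largest falls from P1 to P14, and the 1 rise was in Paxx (1.04 ± 0.28, FDR 0.0362), an end joining factor. Paxx was at 17.3, 18.7 and 29.6 CPM at P1 and at 38.2, 49.1 and 47.9 CPM at P14, so that P1 replicate 3 lay nearest to P14. In MB against P7, Parp3 (1.73 ± 0.40, FDR 0.00312) and Rad51ap1 (1.50 ± 0.25, FDR 0.000228) had the largest rises. Mpg (-1.78 ± 0.27, FDR 0.000114) and Polb (-0.70 ± 0.22, FDR 0.0203), both of base excision repair, had the largest falls. Parp3 was at only 4.32 to 9.08 CPM in MB.

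Genes of dividing cells had medians in the same direction as the repair genes in the following contrasts. Of 21 such genes found of 24 listed, 5 rose from E15.5 to P1 (23.8%, median 0.33), near the 25.4% of all genes called higher. From P1 to P14, 15 fell (median -0.90), beside 5.31% of all genes. In MB, 11 were higher than at P7 (median 0.69) and 21 were higher than at P14 (median 1.57), beside 13.7% and 22.9% of all genes. Their summed level was 2838 to 2971 CPM at E15.5, 3091 to 4926 at P1, 4036 to 5579 at P7, 1897 to 2252 at P14 and 5992 to 7774 in MB. The mean log2 CPM of the 40 repair genes was 4.58 to 4.77 in the P14 libraries, 5.18 to 5.71 at P1 and 5.84 to 6.21 in MB. The difference between the mean of the repair genes and that of the dividing-cell genes was -1.21 to -1.08 at P14, -1.42 to -1.22 at P1, -1.51 to -1.34 at P7, -1.67 to -1.27 in MB and -1.78 to -1.30 at E15.5. P1 replicate 3 was the lowest P1 library in both means. How far the share of dividing cells accounts for the levels of the repair genes was not tested.

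**Figure D4:**
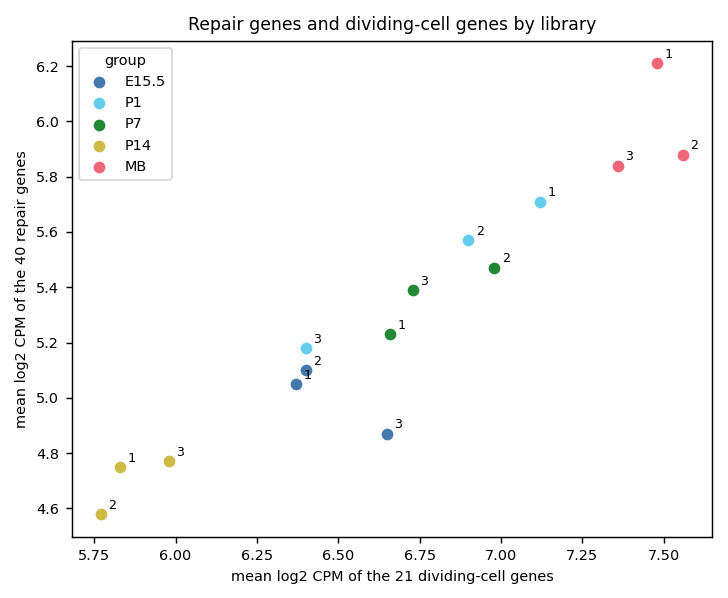
Mean log2 CPM of the 40 repair genes (vertical axis) against that of 21 genes of dividing cells (horizontal axis), 1 point per library, coloured by group and numbered by replicate. The P14 libraries sit at the lower left and the MB libraries at the upper right, and E15.5 replicate 3 (4.87 on the vertical axis and 6.65 on the horizontal) lies lowest for its dividing-cell level.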

How the data were processed

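The authors deposited raw read counts per gene, per transcription start site (TSS) model and per transcript for each library, none normalized, as the whole-number values show. Trimmomatic, TopHat, StringTie, HTSeq and the mm9 build are named in the submitters' processing notes without versions or roles, and the strand setting is not given in the sources used here. The gene table was the main table. Summary lines without a gene did not enter library sizes or tests, and 39.5% to 55.4% of a library's records were counted in genes. Ensembl IDs were paired with symbols through the reference tables (20358 of 21889 genes matched).

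Counts were tested with edgeR 4.0.16 in R 4.3.3. filterByExpr (minimum count 10, minimum total 15) kept 15259 genes, libraries were scaled with TMM, and all 15 libraries entered 1 model with a mean for each group (10 residual degrees of freedom). The alternatives were DESeq2 1.42.0, its size factors in edgeR, no filter, only the groups compared, the transcript and TSS tables, a replicate block, a term for the counting set, fits within 1 set, leaving out each library and, chosen after seeing the data, a correction for GC content and transcript length. A separate edgeR fit of the same kind was run on simulated counts with known changes, for P14 against P1 only. The alternatives were not tested in this way. Positions are in mm9 and promoter windows in GRCm38.p6, and no position was converted. The 40 genes and all gene lists were chosen with earlier results of these data known. Values in every library are given for a fixed selection of the genes and for the 2 with the largest called change in each direction of each contrast. Other repair genes are named where they had the 2 largest called changes in each direction from P1 to P14 or in MB against P7, and 1 gene that this rule names is not reported here. Reads are not independent molecules, so the depth of counting limits precision less than the spread between 3 libraries does, and no interval from counting alone is given.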

Additional observations from a re-analysis of the deposited data

How the results depend on the processing

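Values here are numbers of the 40 genes called, with edgeR unless DESeq2 is named. Each percentage is the share of all genes that the same fits called in that direction. For genes higher at P1 than at E15.5 (16), the TSS table gave 9, the fit within 1 counting set gave 7, and leaving out 1 library gave 12 to 21. For those lower (2), leaving out 1 library gave 1 to 3 (15.4% to 20.7%). The correction for GC content and length, chosen after seeing the data, gave 4 (Xrcc4, Parp1, Trp53bp1 and Lig4), beside 23.5%. For P7 against P1, DESeq2 called 1 gene lower, Fancl (4.59%). For P14 against P7 (19 lower), the term for the counting set gave 0 (0.511%) and leaving out 1 library gave 0 to 16 (0.233% to 3.68%). For P14 against P1 (23 lower), leaving out 1 library gave 1 to 27 (0.939% to 7.96%). For MB against P7 (21 higher), the TSS table gave 13 (14.1%) and leaving out 1 library 12 to 23 (10.9% to 15.6%). The GC correction gave 1 lower gene there, Xrcc4 (23%). For MB against P14, the GC correction gave 1 lower gene, Xrcc4 (29.4%). The change of H2afx in MB against P7 reversed to -1.91 within 1 counting set, which holds MB replicate 1 as the only tumour. The TSS table held 28 of the genes, and it kept 11 of the 12 calls that these had in P1 against E15.5 and 13 of 13 in MB against P7, so its lower counts come with fewer genes. The cause of the other shifts was not tested. Fits that left out 1 library also had fewer residual degrees of freedom.

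Same-numbered libraries deviated together with correlations of -0.239 to 0.332, so the numbers were not taken to pair the samples. With a replicate block, 18 of the 40 genes were higher and 2 lower for P1 against E15.5, beside 24.5% and 19.7% of all genes. For P7 against P1 there were 0, beside 0.701% higher and 0.924% lower. The numbers lower were 19 for P14 against P7 (3.43%) and 24 for P14 against P1 (4.59%). The numbers higher were 20 for MB against P7 (12.1%) and 33 for MB against P14 (21.2%). Over the 4 ages there were 32, and the share of all genes in that fit is not given here.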
